A study of Macaca mulatta with 45 samples.

Results

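The interferon response genes described here are 40 genes taken from a list of classical interferon targets: ISG15 and the enzymes that attach or remove it, the MX, OAS, IFIT, IFI and IFITM proteins, guanylate-binding proteins, and a few sensors and regulators. Every probe that carried one of these symbols, or an older alias, was taken from the table of bead-array intensities, whatever its value. Probes were found for 39 of the 40 genes, 57 probes in all, among the 20046 genes that had a probe. A probe was kept where its detection p-value was under 0.05 on at least 50% of the arrays of any group, which left 30 of these genes among the 12917 genes kept over both fat depots. Of the 30, 29 could be tested in visceral fat (USP18 could not) and 28 in subcutaneous fat (MX2 and OASL could not).

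Interferons are cytokines that cells release on sensing viral nucleic acid or on immune activation. Type I interferons bind the receptor pair IFNAR1 and IFNAR2, whose kinases JAK1 and TYK2 start a signal to the nucleus that switches on genes such as ISG15, MX1 and the OAS and IFIT families. Interferon gamma signals through JAK1 and JAK2 and induces IRF1 and the guanylate-binding proteins. In fat, the adipocytes as well as the macrophages, lymphocytes and stromal cells around them can respond to interferon.

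The arrays measured RNA from the fat of adult male rhesus monkeys aged 7 to 13 years, housed singly, in 3 diet groups. The resveratrol group of 10 animals ate the high-fat, high-sucrose (HFS) diet, with 42% of energy from fat and 27% sucrose by weight, and received resveratrol in a treat at 80 mg per day in year 1 and 480 mg per day in year 2. The HFS group of 10 animals ate the same diet with a placebo treat. The standard-diet group of 4 animals also had the placebo treat and ate a diet with 13% of energy from fat and under 5% sucrose. Visceral fat taken at 24 months gave 4 resveratrol, 4 HFS and 2 standard-diet arrays, and subcutaneous fat at 24 months gave 4, 5 and 2. Subcutaneous fat taken at baseline, while all animals still ate chow, gave 10, 10 and 4 arrays. The baseline groups thus did not yet differ in diet, and each held arrays of both subcutaneous array sets described below. All 11 subcutaneous arrays of 24 months had a baseline array of the same animal, and 4 of the 10 visceral arrays had a 24-month subcutaneous array of the same animal.

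Levels are log2 normalized intensities, and each gene is given by its brightest kept probe; a difference of 1 log2 unit is a 2-fold difference. The probes were designed for human transcripts, so the levels of one gene were compared across arrays and never with those of another gene. In bulk fat, fewer cells of a type and less RNA per cell cannot be told apart. Between 10 and 12 of 12 adipocyte markers were above background on every array. The subcutaneous arrays came in 2 sets that no label names; they differed in how finely their intensities were written and in brightness. The dimmer set, whose raw medians began at 48.5, held all 11 arrays of 24 months and 8 of baseline, and the brighter set (raw medians of 77.8 to 97.3) held the other 16 baseline arrays. The 10 visceral arrays formed a set of their own (55.5 to 62.2), so depot and array set cannot be told apart.

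Detection split the 40 genes into 3 kinds. Of them, 17 had a probe above background on all 45 arrays: MX1, IFI44, IFI44L, IFI6, IFI27, IFI35, IFIT1, IFITM1, IFITM2, OAS1, IFIH1, HERC5, DTX3L, PARP9, GBP1, GBP2 and TRIM22. A further 13 were kept but lay near background on some arrays, among them ISG15 (above background on 36 arrays), IRF1 (12), USP18 (11) and HERC6 (13). The remaining 9 with a probe passed in no group: IFI16, IFIT2, IFIT5, IFITM3, OAS3, IRF7, IRF9, SAMD9 and SAMD9L. STAT2 was not analysed here. A dim human probe on monkey RNA does not show that a gene was silent. Averaged over the 30 kept genes, the level per array was 6.81 ± 0.18 in visceral resveratrol fat and 7.39 ± 0.21 in visceral HFS fat (SD, n = 4 each), and the 2 standard-diet arrays were at 6.97 and 7.51. All 4 resveratrol arrays (6.68 to 7.07) lay below all 4 HFS arrays (7.14 to 7.60). In subcutaneous fat at 24 months the same average was 7.00 ± 0.04 in resveratrol fat (SD, n = 4) and 7.14 ± 0.29 in HFS fat (SD, n = 5), and the groups overlapped.

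**Figure D1:**
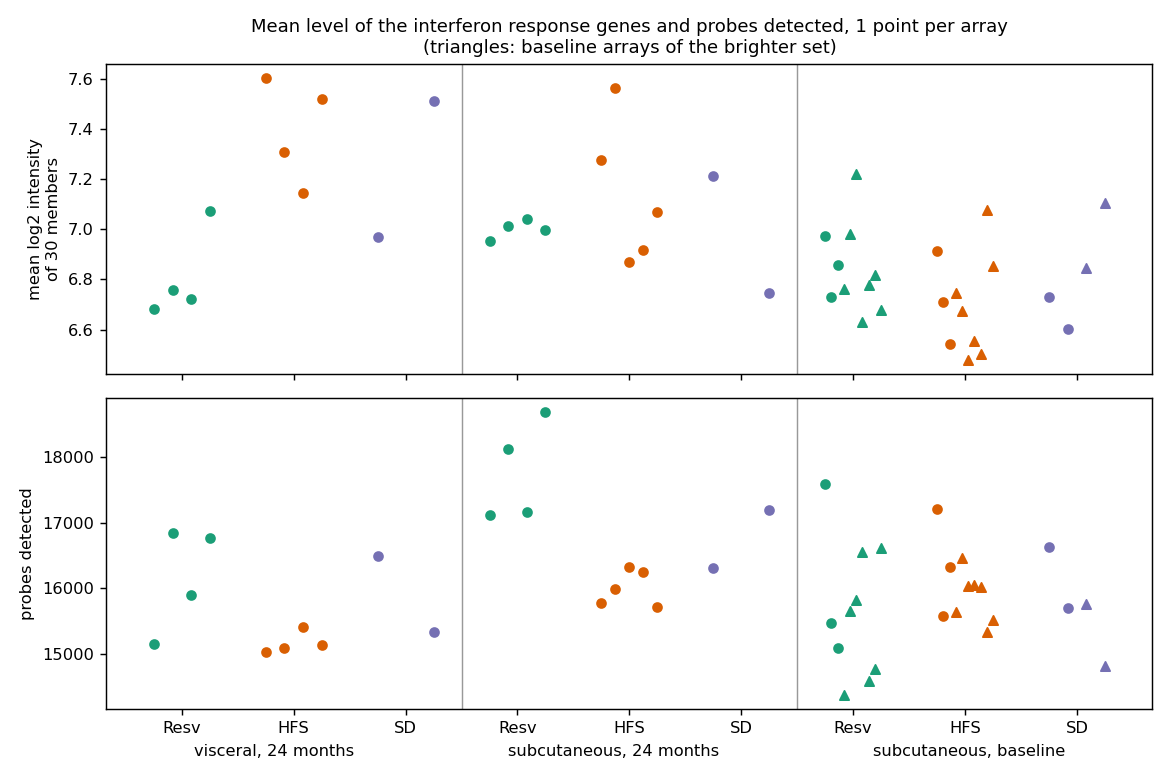
Mean log2 level of the 30 kept interferon response genes on each array (top) and number of probes above background on the same array (bottom), by depot, time and diet group; triangles are baseline arrays of the brighter set. The 4 visceral resveratrol arrays sit between 6.68 and 7.07, below the 4 visceral HFS arrays at 7.14 to 7.60, and the subcutaneous groups overlap.

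In visceral fat at 24 months, most interferon response genes had lower levels in resveratrol than in HFS animals, and none passed the test (adjusted p under 0.05). The difference was below 0 for 25 of 29 genes, against 57.9% of all 11657 genes tested, and its median was −0.50 against −0.08 over all genes. At an unadjusted p under 0.05, 13 of the 29 were lower and 0 higher, where 11.3% of all genes were lower and 12.5% higher. Of the 29, 10 had every resveratrol array below every HFS array, against 7.72% of all genes, and 0 had the groups apart in the other direction, against 6.79%. With limma's moderated test and Benjamini-Hochberg adjustment, the share of all genes called in this comparison was 0%.

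ISG15, a ubiquitin-like protein that is coupled to other proteins after interferon exposure, was at 6.11, 5.47, 4.96 and 6.53 in the resveratrol arrays (the 4.96 not above background), against 7.99, 7.42, 6.39 and 8.61 in the HFS arrays. Its 2 standard-diet arrays were at 5.80 and 7.75. The resveratrol arrays were low and met the HFS range only where the highest of them exceeded the lowest HFS array. HERC5, the ligase that couples ISG15 to proteins in human cells, was at 7.51, 7.02, 6.17 and 7.32 in resveratrol fat, against 8.48, 7.52, 7.94 and 8.67 in HFS fat, and the groups did not overlap. The difference was −1.83 ± 0.55 for ISG15 (SE, adjusted p = 0.109), which puts the resveratrol level at 0.281 of the HFS level, and −1.15 ± 0.44 for HERC5.

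Among the antiviral effectors, MX1, a dynamin-like GTPase that blocks virus replication, was at 5.17, 5.29, 5.22 and 5.80 in the resveratrol arrays, against 7.03, 6.02, 5.81 and 6.16 in the HFS arrays. Its standard-diet arrays, at 6.15 and 7.00, lay within the HFS range. The resveratrol arrays were the lowest 4 of the 10, the highest of them just under the lowest HFS array (−0.89 ± 0.31, adjusted p = 0.131). OAS2, which makes the oligoadenylates that activate RNase L, was at 5.14, 5.16, 4.90 and 5.70 in resveratrol fat, with the 4.90 not above background, and at 6.91, 6.43, 5.77 and 6.40 in HFS fat. These groups did not overlap either (−1.15 ± 0.40, adjusted p = 0.133), although a second kept OAS2 probe differed by only −0.19. OAS1, another synthetase of this family, was at 5.84, 6.69, 6.50 and 7.25 in resveratrol fat and at 7.25, 8.03, 6.52 and 7.20 in HFS fat, with overlap and a difference of −0.68 (adjusted p = 0.265). RSAD2, the antiviral enzyme viperin, was near background and differed by 0.06.

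The membrane protein IFITM1, which restricts virus entry, was at 9.37, 9.06, 8.95 and 9.45 in resveratrol fat and at 9.93, 9.99, 9.93 and 9.57 in HFS fat. The standard-diet arrays, at 9.10 and 9.02, were as low as the resveratrol arrays, so that the HFS arrays stood above all the others. The resveratrol minus HFS difference was −0.65 ± 0.18 (adjusted p = 0.102). Its relative IFITM2 differed by −0.27, with overlap. Of the IFIT proteins, which bind viral RNA, IFIT1 differed by −0.88 with overlap, and IFIT3 was near background and differed by −0.03.

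GBP2, a guanylate-binding protein that interferon gamma induces strongly, was at 6.71, 7.13, 7.90 and 7.02 in resveratrol fat and at 8.60, 7.94, 8.68 and 8.07 in HFS fat. The 2 standard-diet arrays spanned both groups, at 7.24 and 8.88. The difference was −1.13 ± 0.37 (adjusted p = 0.121), while GBP1, of the same family, differed by −0.15. IRF1, the transcription factor through which interferon gamma induces many of its targets, was above background on 1 of 4 resveratrol arrays (5.26; the others 4.57, 4.61 and 4.82) and on 3 of 4 HFS arrays (5.36, 5.60 and 5.63; the other 5.01). The difference was −0.59 ± 0.19 (adjusted p = 0.124). IFIH1, the cytosolic sensor of double-stranded RNA also called MDA5, was at 7.87, 7.30, 7.48 and 8.02 in resveratrol fat against 8.84, 8.38, 8.14 and 8.42 in HFS fat, without overlap (−0.78 ± 0.27, adjusted p = 0.131).

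PARP9 and DTX3L, which form a complex that modifies chromatin and viral proteins in human cells, and the related PARP14 made up the ADP-ribosylation members. PARP9 was at 6.70, 6.78, 7.00 and 7.38 in resveratrol fat and at 8.46, 8.59, 7.06 and 8.19 in HFS fat, so that 1 HFS array fell in the resveratrol range (−1.11 ± 0.33, adjusted p = 0.108). PARP14 was at 5.38, 5.53, 4.95 (not above background) and 5.71 in resveratrol fat and at 6.79, 6.03, 6.15 and 5.96 in HFS fat. All 4 resveratrol arrays lay below the HFS arrays (−0.84 ± 0.26, adjusted p = 0.111). DTX3L differed by −0.50, also without overlap.

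The IFI members, named only for their induction by interferon, include genes that varied widely between animals. IFI44L was at 6.12, 6.48, 6.04 and 7.10 in resveratrol fat against 8.04, 7.35, 7.23 and 7.39 in HFS fat, without overlap (−1.07 ± 0.33, adjusted p = 0.112), and its second kept probe differed by −0.13. IFI27, a small hydrophobic membrane protein, was at 11.16, 9.69, 8.07 and 8.99 in resveratrol fat and at 10.55, 11.95, 10.47 and 12.54 in HFS fat. One resveratrol array lay inside the HFS range, and the difference was −1.90 ± 0.75 (adjusted p = 0.164). IFI6, a relative of IFI27, was at 7.54, 10.09, 11.96 and 11.02 in resveratrol fat and at 10.45, 10.23, 10.39 and 10.85 in HFS fat. The resveratrol arrays lay on both sides of the HFS arrays, and the difference of −0.32 ± 0.72 was smaller than its error. Only EPSTI1 (0.26), OASL (0.16), RSAD2 and BST2 (0.03) had differences above 0.

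**Figure D2:**
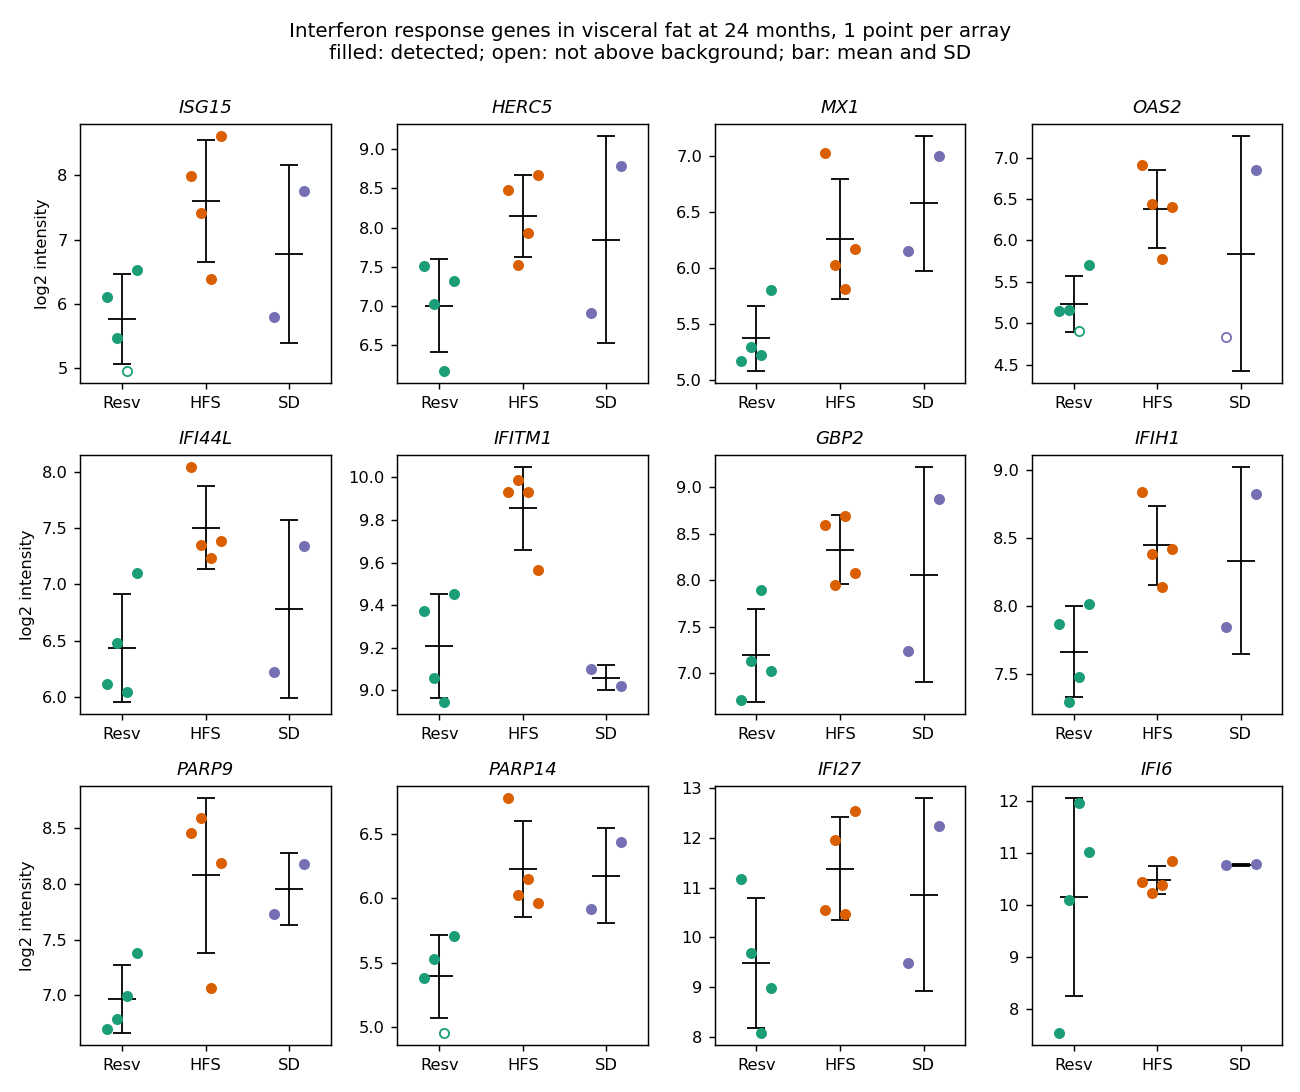
Log2 level of 12 interferon response genes in visceral fat at 24 months, in resveratrol (n = 4), HFS (n = 4) and standard-diet (n = 2) animals; filled points were above background, open points were not, and bars give the mean and SD. ISG15 in resveratrol fat runs from 4.96 to 6.53 against 6.39 to 8.61 in HFS fat, while IFI6 in resveratrol fat spans 7.54 to 11.96.

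Markers of lymphocytes and macrophages were read from the same arrays. Of 14 tested T and NK cell markers, 12 had a difference below 0, 0 passed, and the median was −0.45. The summed normalized intensity of the 16 such markers kept over both depots was 909 to 1318 in resveratrol fat and 1121 to 2201 in HFS fat. Of the 20 listed markers, 5 (CD3E, CD247, CD5, CD7 and GZMB) were above background on no visceral array. Of 17 tested macrophage markers, 14 had a difference above 0, 0 passed, and the sum was 14364 to 58148 in resveratrol fat and 21510 to 27073 in HFS fat; MRC1, ITGAM and EMR1 were above background on no visceral array. The part of either cell type in the visceral values was not tested. The number of probes above background was 15153 to 16839 in resveratrol fat and 15039 to 15414 in HFS fat. With that number as a covariate, the median over the interferon response genes was −0.45 and ISG15 differed by −1.33.

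Against the standard diet, with its 2 visceral arrays, none of the 29 passed. In resveratrol minus standard diet, 24 of 29 differences were below 0, with a median of −0.47 against −0.05 over all genes (0.00858% of all genes called). MX1 had the smallest unadjusted p (−1.20 ± 0.37, adjusted p = 0.467), and 5 of the 29 had all resveratrol arrays below both standard-diet arrays, against 9.66% of all genes. In HFS minus standard diet, 19 of 29 were above 0, with a median of 0.23 against 0.005 over all genes (0.00858% called). IFITM1 had the smallest unadjusted p (0.79 ± 0.22, adjusted p = 0.901) and was the one member under an unadjusted 0.05, where 2.32% of all genes were higher at that level. These contrasts share the standard-diet arrays with each other and their treated arrays with resveratrol minus HFS.

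In subcutaneous fat at 24 months, 2 of 28 interferon response genes passed between resveratrol and HFS animals, DTX3L lower and USP18 higher, against 2.23% of all 12130 genes (1.96% higher and 0.272% lower). DTX3L was at 5.22, 5.60, 6.47 and 5.71 in the resveratrol arrays, against 7.11, 7.13, 6.11, 6.27 and 7.33 in the HFS arrays, with the standard-diet arrays at 6.99 and 6.90. A single resveratrol array reached into the HFS range. The mean was 5.75 ± 0.52 in resveratrol fat (SD, n = 4) and 6.79 ± 0.56 in HFS fat (SD, n = 5), a difference of −1.04 ± 0.27 (SE, adjusted p = 0.0328). PARP9, its partner, differed by −0.23 in this fat (adjusted p = 0.813).

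USP18 removes ISG15 from proteins and, by binding IFNAR2, damps the type I interferon receptor. It was at 5.79, 5.28, 5.80 and 5.86 in the resveratrol arrays, all above background, and at 5.30, 5.51, 4.81, 4.85 and 4.69 in the HFS arrays, of which the first and second were above background. The standard-diet arrays were at 5.30 and 4.86, the second not above background. The lowest resveratrol array lay inside the HFS range, and the fitted difference was 0.65 ± 0.18 (adjusted p = 0.0401). Most HFS arrays were not above background, so this value is no measured size. USP18 was kept in subcutaneous fat only through the 24-month resveratrol arrays, where it was high, and 1 of 2 standard-diet arrays. Its call therefore supports little by itself.

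The number of probes above background differed between these groups, at 17117 to 18673 in resveratrol fat and 15712 to 16322 in HFS fat, and with it as a covariate the differences were −0.46 for DTX3L (adjusted p = 0.693) and 0.42 for USP18 (adjusted p = 0.575). DTX3L also lost its call without HFS replicate 1 (adjusted p = 0.0845), 2 (0.0861) or 5 (0.112), or without resveratrol replicate 1 (0.120), 2 (0.116) or 4 (0.138), and USP18 without HFS replicate 3 (0.117), 4 (0.105) or 5 (0.135), or resveratrol replicate 1 (0.0927), 3 (0.0969) or 4 (0.229).

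The next genes by unadjusted p did not pass. IFI6 was at 8.45, 8.92, 10.07 and 9.26 in resveratrol fat, against 10.42, 11.29, 10.92, 9.40 and 10.16 in HFS fat, with 1 resveratrol array inside the HFS range (−1.26 ± 0.42, adjusted p = 0.115). IRF1 was above background on 3 of 4 resveratrol arrays (5.37, 5.36 and 5.33; the other 4.49) and on 0 of 5 HFS arrays (4.57 to 4.74), a difference of 0.48 ± 0.17 (adjusted p = 0.157) and at least 1.12-fold. HERC6, a relative of HERC5 and the ISG15 ligase of mice, was above background on 4 of 4 resveratrol arrays (5.36, 5.23, 4.93 and 5.39) and on 1 of 5 HFS arrays (5.37; the others 4.71 to 4.86), a difference of 0.34. IFITM1 was the one member whose groups did not overlap (8.63, 8.64, 8.72 and 7.07 in resveratrol fat, 9.43, 9.13, 9.11, 9.06 and 8.78 in HFS fat; −0.84, adjusted p = 0.234), where 3.89% of all genes were apart in that direction.

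The genes that led in visceral fat had other values here. MX1 was at 7.70, 7.84, 7.27 and 8.19 in resveratrol fat and at 6.86, 8.23, 6.25, 7.09 and 6.91 in HFS fat, a difference of 0.68 that did not pass. ISG15 was at 5.14, 5.43, 5.67 and 5.86 in resveratrol fat and at 6.82, 6.17, 5.67, 5.54 and 6.23 in HFS fat, a difference of −0.56 (adjusted p = 0.805). IFI44L was at 6.48, 6.28, 6.14 and 6.76 against 6.78, 8.20, 7.05, 6.93 and 6.73 in HFS fat (−0.72, adjusted p = 0.285). All 3 overlapped between the groups. Over the 28 genes 17 differences were below 0, against 55.4% of all genes, with a median of −0.10 against −0.04. With median scaling in place of quantile normalization the members' median was 0.46 and that of all genes 0.38, so this list had no direction that held under both scalings.

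**Figure D3:**
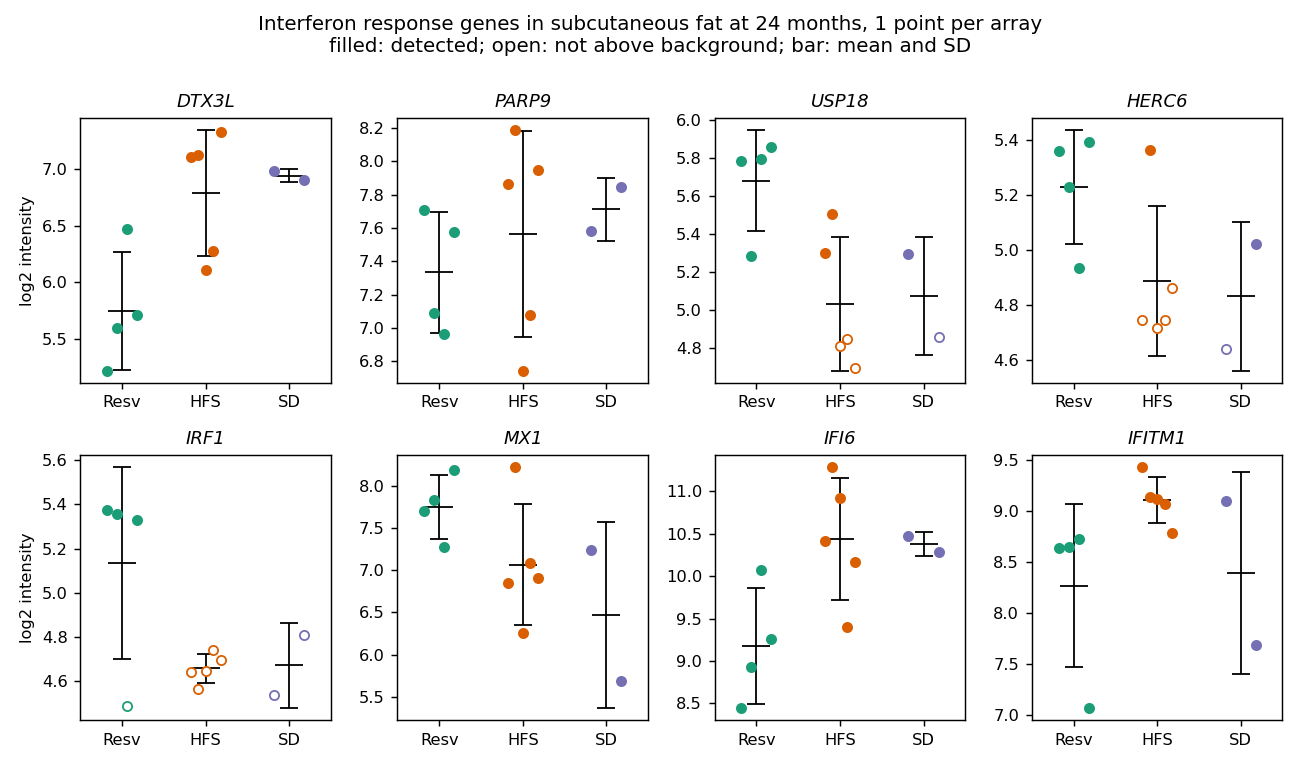
Log2 level of 8 interferon response genes in subcutaneous fat at 24 months, in resveratrol (n = 4), HFS (n = 5) and standard-diet (n = 2) animals; filled points were above background, open points were not, and bars give the mean and SD. DTX3L in resveratrol fat lies at 5.22 to 6.47 against 6.11 to 7.33 in HFS fat, and USP18 at 5.28 to 5.86 against 4.69 to 5.51.

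Against the 2 standard-diet arrays of subcutaneous fat, none of the 28 passed. Resveratrol minus standard diet had a median of 0.04 over the members (0.791% of all genes called, 0.742% higher and 0.0495% lower), and DTX3L had the smallest unadjusted p (−1.20 ± 0.35, adjusted p = 0.115), with all 4 resveratrol arrays below both standard-diet arrays. Of all genes, 11.7% were apart in that direction. HFS minus standard diet had a median of 0.12, with 20 of 28 above 0 (0% called).

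The difference between depots in the resveratrol minus HFS contrast was tested in 1 fit over both depots. The 2 of 30 genes under the threshold, where 2.7% of all genes were (1.66% lower), were IRF1 (fitted difference −1.06 ± 0.25, adjusted p = 0.0178) and USP18 (−0.96 ± 0.25, adjusted p = 0.0262). Both fitted values rest on a group that was not above background, so neither is a measured size. USP18 was kept only through subcutaneous groups. IRF1 was kept only through visceral HFS, visceral standard-diet and 24-month subcutaneous resveratrol arrays, among them the groups of this contrast where it was high. Neither call therefore supports much by itself. IRF1 was above background on 1 of 4 visceral resveratrol arrays and 3 of 4 visceral HFS arrays, and in subcutaneous fat on 3 of 4 resveratrol arrays and 0 of 5 HFS arrays. USP18 was above background on 0 of 4 visceral resveratrol arrays and 1 of 4 visceral HFS arrays. MX1 had the next smallest p (−1.57, adjusted p = 0.131). The median over the 30 was −0.42 against −0.02 over all genes, and 22 of 30 were below 0. IRF1 kept its call in all 17 fits that left out 1 array and lost it with the deposited scores (adjusted p = 0.101) and with quantile normalization without background correction (adjusted p = 0.0723). USP18 lost it, at adjusted p 0.0532 to 0.0720, without subcutaneous HFS replicate 3 or 4, subcutaneous resveratrol replicate 4, visceral HFS replicate 2 or 4, or visceral resveratrol replicate 3 or 4.

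Between baseline and 24 months, subcutaneous fat of resveratrol animals showed 6 of 28 interferon response genes higher and 0 lower, where 11.4% of all genes were called (6.92% higher and 4.45% lower). USP18 at 24 months (values above) lay wholly over its 10 baseline arrays of the same group, 1 of which was above background, with means of 5.68 ± 0.27 (SD, n = 4) and 4.68 ± 0.18 (SD, n = 10) and a difference of 1.01 ± 0.16 (SE, adjusted p = 3.23e-05). GBP2 was at 9.37, 8.89, 9.66 and 8.90 at 24 months and at 6.43 to 8.24 at baseline, again without overlap, a difference of 1.88 ± 0.52 (3.67-fold, adjusted p = 0.0154). These 2 were the members whose 24-month arrays all lay above baseline, where 2.64% of all genes did. MX1 (1.30 ± 0.37, adjusted p = 0.0186), PARP14 (0.92 ± 0.26, adjusted p = 0.0182), IRF1 (0.50 ± 0.15, adjusted p = 0.0267) and HERC6 (0.43 ± 0.12, adjusted p = 0.0154) overlapped with their baseline arrays. IRF1 was kept in subcutaneous fat only through the resveratrol arrays of 24 months, the group where it was high, so its call supports nothing by itself. USP18 was kept there only through the resveratrol and standard-diet arrays of 24 months, so its call supports little by itself. Its fitted change rests on baseline arrays mostly not above background and is no measured size. ISG15 (−0.52), IFI6 (−0.20) and DTX3L (0.02) did not pass.

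Each of the 4 animals had its own baseline array. Within animals, GBP2 was higher by 1.53, 1.74, 1.42 and 1.32, USP18 by 0.73, 0.72, 1.01 and 1.16, and MX1 by 0.56, 1.67, 0.61 and 1.06. All 3 genes were higher at 24 months in 4 of 4 animals. ISG15 changed by −0.99, 1.11, 0.44 and −1.51 within the same animals, up in 2 and down in 2. With the animal as a block, GBP2 (adjusted p = 0.0394) and USP18 (0.91, adjusted p = 0.0446) passed, where 0.602% of all genes did, and MX1 (0.97, adjusted p = 0.133), PARP14 (0.48, 0.342), IRF1 (0.52, 0.157) and HERC6 (0.30, 0.352) did not. The members higher in all 4 animals were 9 of 28, against 14% of all genes, and 1 was lower in all 4, against 13.1%.

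Among baseline and 24-month arrays of the dimmer set alone, 0 of the 28 passed, with 0.88 for USP18 (adjusted p = 0.0662), 1.46 for GBP2 (0.165), 1.09 for MX1 (0.160), 0.49 for IRF1 (0.193), 0.22 for PARP14 (0.640) and 0.22 for HERC6 (0.491). With the set as a block instead, USP18 passed, and GBP2 differed by 0.94 (0.252), PARP14 by 0.50 (0.243), MX1 by 1.21 (0.0862), IRF1 by 0.52 (0.0698) and HERC6 by 0.32 (0.141). Leaving out 1 resveratrol array of 24 months ended the call of GBP2 without replicate 3 (adjusted p = 0.0592), of HERC6 without 1 (0.0607) or 4 (0.0983), of IRF1 without 1 (0.105), 2 (0.116) or 4 (0.139), of MX1 without 2 (0.0573) or 4 (0.106), and of PARP14 without 2 (0.0648) or 3 (0.0583). USP18 kept its call in all 4 of these fits. In the main fit 11.4% of all genes passed between baseline and 24 months. Of 17 tested macrophage markers, 16 were above 0 over the same interval and 4 passed (CD68, CD163, LYZ and FCGR1A). Their summed intensity was 20843 to 30035 at 24 months and 3398 to 22066 at baseline, with EMR1 above background on no subcutaneous array, and their part in the result was not tested.

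In HFS animals 2 of 28 genes passed over the same interval, both higher, against 1.01% of all genes (0.668% higher). DTX3L averaged 6.79 ± 0.56 at 24 months (SD, n = 5) and 5.83 ± 0.27 at baseline (SD, n = 10), a difference of 0.96 ± 0.22 (SE, adjusted p = 0.0308). GBP2 was at 9.27, 10.33, 9.15, 7.25 and 9.27 at 24 months and at 5.92 to 8.53 at baseline, overlapping through its lowest array (1.89 ± 0.48, adjusted p = 0.0443). IFI44L (0.98 ± 0.26, adjusted p = 0.051), OAS2 (0.82, 0.0742), MX1 (1.18 ± 0.34, 0.0796), IFI6 (1.15 ± 0.34, 0.0876) and IFITM1 (0.91 ± 0.28, 0.0943) came next. The difference was above 0 for 27 of 28 genes, while 51.6% of all genes were below 0, and the median was 0.35 against −0.01; with median scaling these medians were 0.05 and −0.32. At an unadjusted p under 0.05, 11 were higher and 0 lower, where 7.49% of all genes were higher. IFI27 was the exception, at −1.43.

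Within the 5 HFS animals, DTX3L was higher by 1.36, 1.13, 0.64, 0.86 and 1.23, and GBP2 by 0.74, 2.67, 0.83, 0.47 and 2.55. ISG15 changed by −0.11, 1.60, 1.16, 0.84 and 1.41, higher in 4 of 5 animals. In all 5 animals 14 of 28 members were higher and 0 were lower, against 7.86% and 7.16% of all genes. With the animal as a block, 0 of 28 passed (DTX3L 1.04, adjusted p = 0.0702, and GBP2 1.45, adjusted p = 0.112), and 0 of all genes did. Within the dimmer set DTX3L differed by 1.05 (adjusted p = 0.172) and GBP2 by 0.88 (adjusted p = 0.529). DTX3L lost its call without HFS replicate 1 (adjusted p = 0.117), 2 (0.0978) or 5 (0.112) of 24 months, and GBP2 without 1 (0.125), 2 (0.171), 3 (0.104) or 5 (0.112). The macrophage marker sum was 19194 to 26348 at 24 months and 5202 to 34829 at baseline, with 0 of 17 passing.

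In standard-diet animals none of the 28 passed over time (0% of all genes called), with a median of 0.19 against 0.002. Within the 2 animals that had both arrays, DTX3L was higher by 1.56 and 1.18 and BST2, the membrane protein tetherin that holds budding viruses, by 1.05 and 1.67. GBP2 was lower in both, with changes of −0.62 and −0.81. In both animals 13 of 28 members were higher and 5 were lower, against 33.8% and 30.3% of all genes. With the animal as a block, BST2 (1.36, adjusted p = 0.0134), DTX3L (1.37, adjusted p = 0.0164) and IFI6 (1.21, adjusted p = 0.0214) passed, from 2 animals, where 4.28% of all genes did. Only 2 pairs inform this fit, so its p-values say little about the spread between animals. The IFI6 changes within these animals ran from 0.55 to 1.87.

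**Figure D4:**
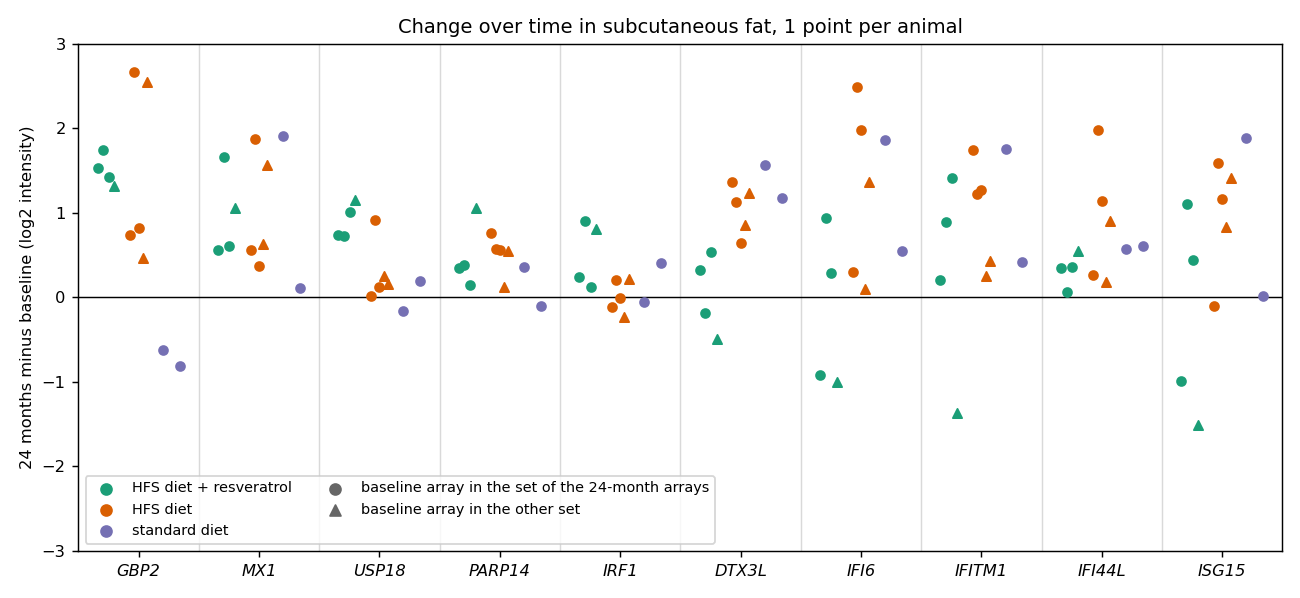
Change in log2 level from baseline to 24 months within each animal's subcutaneous fat, for 10 interferon response genes in resveratrol (n = 4), HFS (n = 5) and standard-diet (n = 2) animals; circles mark a baseline array of the same set as the 24-month array and triangles one of the brighter set. GBP2 changed by 1.32 to 1.74 in resveratrol animals, and DTX3L by 0.64 to 1.36 in HFS animals against −0.49 to 0.54 in resveratrol animals.

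The change over time was not shown to differ between resveratrol and HFS animals for any member (0 of 28 passed; 0.841% of all genes called, 0.775% higher and 0.066% lower). DTX3L came closest with USP18: within animals DTX3L changed by 0.32, −0.18, 0.54 and −0.49 in resveratrol fat, against 0.64 to 1.36 in HFS fat, and the interaction was −0.95 (adjusted p = 0.220). USP18 had an interaction of 0.65 (adjusted p = 0.174) and IFI6 of −1.35 (adjusted p = 0.268). At baseline itself, 0 of 28 differed between the animals later given resveratrol and those later given HFS alone (0% of all genes called), with a median of 0.09 and 21 of 28 above 0, and 0 of 28 between the animals later given HFS and those kept on the standard diet (0.00824% of all genes called).

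Before any diet, some members already spread widely among the 24 animals. IFI27 ran from 7.73 to 11.7 in animals later given resveratrol and from 6.95 to 11.8 in those later given HFS, and ISG15 from 4.33 to 8.27 and from 4.50 to 7.13. Over these 24 arrays, 27 relations with ISG15 were computed and 3 passed a permutation test on Pearson's r after Benjamini-Hochberg adjustment. They were IFI6 (r = 0.732, adjusted p = 0.00135; rho = 0.629, adjusted p = 0.0335), MX1 (r = 0.660, adjusted p = 0.00513; rho = 0.503, adjusted p = 0.121) and IFIT1 (r = 0.557, adjusted p = 0.0454; rho = 0.540, adjusted p = 0.0995). Without the 2 arrays farthest from the median of ISG15, r was 0.557 for IFI6, 0.462 for MX1 and 0.459 for IFIT1. Within the dimmer set of 8 arrays r was 0.640, 0.252 and 0.293 for these genes, and within the brighter set of 16 arrays 0.780, 0.836 and 0.662. The median r over the 27 members was 0.185, against −0.0074 over the other 12102 genes.

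**Figure D5:**
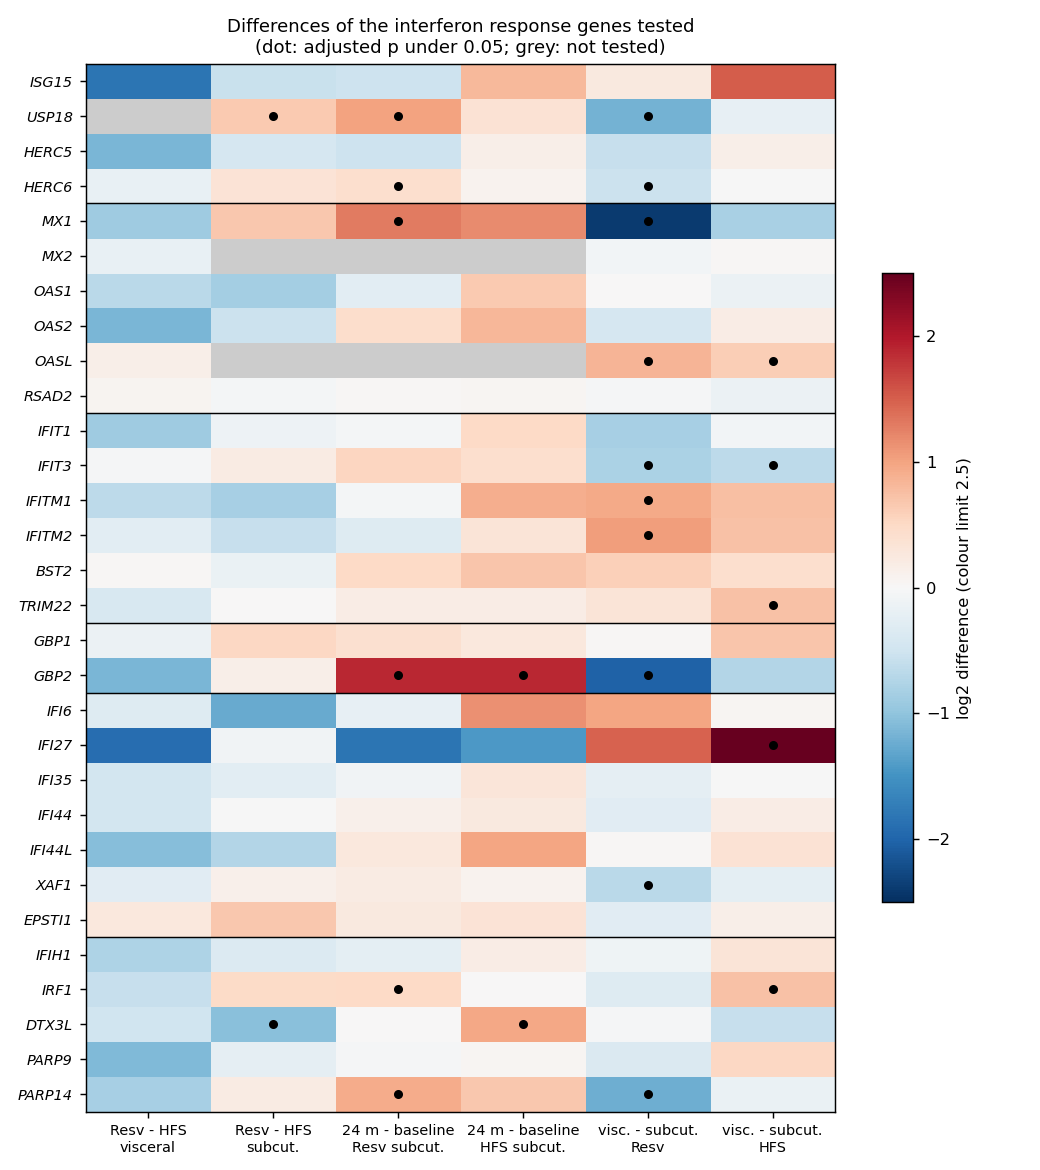
Log2 difference of each of the 30 kept interferon response genes in 6 comparisons, as colour, with a dot where limma's adjusted p was under 0.05 and grey where a gene was not tested. The column for resveratrol minus HFS in visceral fat is below 0 for 25 of 29 genes with 0 dots, and that for 24 months minus baseline in HFS animals is above 0 for 27 of 28 genes with 2 dots.

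Visceral and subcutaneous fat of 24 months were compared within each diet group. In resveratrol animals 10 of 30 genes passed, 3 higher and 7 lower in visceral fat, against 35.8% of all genes (20.1% higher and 15.8% lower). MX1 was lower without overlap (5.17 to 5.80 in visceral fat, 7.27 to 8.19 in subcutaneous fat; −2.38 ± 0.42, adjusted p = 2.74e-05), as were GBP2 (−2.01 ± 0.59, adjusted p = 0.00641) and PARP14 (−1.21 ± 0.30, adjusted p = 0.00159). Of all genes, 15.6% were lower without overlap in this comparison. USP18 was above background on 0 of 4 visceral resveratrol arrays and was at least 1.64-fold lower there (adjusted p = 2.52e-06), and XAF1, which promotes cell death, at least 1.43-fold lower (adjusted p = 0.00136). HERC6 (−0.54, adjusted p = 0.00338) and IFIT3 (−0.78, adjusted p = 0.00461) were also lower. USP18 and the IFIT3 probe used here were kept only through subcutaneous groups and OASL only through visceral ones, so the calls of these 3 between depots support nothing by themselves.

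The 3 genes higher in visceral fat of resveratrol animals were OASL, IFITM2 and IFITM1. OASL, a synthetase-like protein that strengthens RNA sensing in human cells, was above background on 0 of 4 subcutaneous resveratrol arrays of 24 months and at least 1.42-fold higher in visceral fat (adjusted p = 0.00151). IFITM2 was at 12.11, 12.23, 12.61 and 12.38 in visceral fat and at 11.54, 11.34, 11.81 and 10.47 in subcutaneous fat (1.04 ± 0.34, adjusted p = 0.0145). IFITM1 differed by 0.94 ± 0.33 (adjusted p = 0.0221). Without subcutaneous resveratrol replicate 4, which had the lowest level of both, the differences were 0.77 for IFITM2 (adjusted p = 0.0964) and 0.54 for IFITM1 (adjusted p = 0.206), and IFITM1 also missed the threshold without visceral resveratrol replicate 1 (0.0503) or 4 (0.0617). With the number of probes above background as a covariate, GBP2 (0.0513), IFITM1 (0.122) and IFITM2 (0.0502) did not pass.

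In HFS animals 5 of 30 genes passed between depots, 4 higher and 1 lower in visceral fat, against 18.7% of all genes (11.2% higher and 7.52% lower). IFI27 averaged 11.38 ± 1.03 in visceral fat (SD, n = 4) and 8.09 ± 1.13 in subcutaneous fat (SD, n = 5), a difference of 3.29 ± 0.96 (SE, adjusted p = 0.0133). TRIM22, an antiviral ubiquitin ligase, averaged 10.57 ± 0.20 in visceral fat (SD, n = 4) and 9.85 ± 0.15 in subcutaneous fat (SD, n = 5; adjusted p = 0.0137). IRF1 was at least 1.34-fold higher (adjusted p = 0.00199) and OASL at least 1.19-fold higher (adjusted p = 0.0283), while IFIT3 was at least 1.22-fold lower (adjusted p = 0.0225). Of the 2 groups in this contrast, IRF1 was kept only through visceral HFS, where it was high, so its call supports little by itself. That call held in all 9 fits that left out 1 array. It was lost with median scaling (adjusted p = 0.0564) and with the deposited scores (adjusted p = 0.0722). MX1, GBP2 and USP18 did not pass here (−0.81, −0.73 and −0.21), and in standard-diet animals none of 30 passed (2.39% of all genes called, 1.72% higher and 0.674% lower).

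These HFS calls were lost without single arrays: IFI27 without visceral HFS replicate 4 (adjusted p = 0.0571), TRIM22 without visceral replicate 1 (0.0524), IFIT3 without subcutaneous replicate 2 (−0.45, 0.120) or visceral replicate 1 (0.0634) or 2 (0.0554), and OASL without subcutaneous replicate 3 (0.0568) or 4 (0.0592) or visceral replicate 1 (0.125) or 4 (0.0553). Of all genes, 35.8% passed between depots in resveratrol animals and 18.7% in HFS animals. T and NK cell markers had median differences between visceral and subcutaneous fat of 0.37 in resveratrol animals (4 of 16 passing) and 0.69 in HFS animals (7 of 16 passing, among them GNLY, NKG7, CD2 and CD8A). Their summed intensity in subcutaneous fat was 612 to 768 in resveratrol animals and 633 to 926 in HFS animals, against the visceral sums given above. Markers of mesothelium, the lining of visceral fat, had medians of 1.80 in resveratrol animals (7 of 11 passing) and 1.31 in HFS animals (6 of 11 passing). The part of these cells in the depot differences was not tested. In the 4 animals with both depots, the visceral minus subcutaneous difference of MX1 was −2.55 in the resveratrol animal, −1.20 and −0.44 in the 2 HFS animals and −1.10 in the standard-diet animal.

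The genes that carry the interferon signal were read beside their targets. In visceral resveratrol minus HFS none of the signalling genes passed, and their median difference was 0.002 with 7 of 14 above 0. JAK1, the kinase shared by both receptor types, differed by 2.26 ± 0.60 (adjusted p = 0.102) and TYK2 by 0.64 ± 0.17. Of 33 other interferon targets outside the list, 24 were below 0, with a median of −0.20, and 0 passed. Among the smallest unadjusted p were those of NLRC5 (1.10), ADAR, an RNA-editing enzyme (−0.80), and SIGLEC1. SIGLEC1 was above background on no HFS array and at least 2.62-fold higher in resveratrol fat. It was kept only through groups other than HFS, so this value supports little by itself. In subcutaneous fat, JAK2, the kinase of the interferon gamma receptor, was higher in resveratrol than in HFS animals (1.13 ± 0.31, adjusted p = 0.0470), the one signalling gene to pass. In that contrast 2.23% of all genes were called. UBE2L6, the enzyme that passes ISG15 to its ligase, missed the threshold (−0.89 ± 0.26, adjusted p = 0.0581). Over time, TLR3, an endosomal sensor of double-stranded RNA, was higher at 24 months in resveratrol (0.43, adjusted p = 0.026) and in HFS animals (0.46, adjusted p = 0.0493), JAK2 in resveratrol animals (0.99, adjusted p = 0.0175) and UBE2L6 in HFS animals (0.92, adjusted p = 0.0296). Of all genes, 11.4% were called over time in resveratrol and 1.01% in HFS animals. With the animal as a block, 0 of all genes passed in HFS animals, so TLR3 and UBE2L6 lost their calls there. All 24-month arrays were of the dimmer set, which held 8 of the baseline arrays. The contrast between depots in the resveratrol minus HFS difference passed for JAK1 (2.13, adjusted p = 0.0247), TYK2 (1.22, adjusted p = 0.0479) and TBK1, a kinase that triggers interferon production (−1.11, adjusted p = 0.0364). In that fit 15 signalling genes and 14 genes of interferon induction were tested, and 2.7% of all genes were called. Whether these calls held when arrays were left out was not examined.

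Several probes were kept for 9 of the 30 members. Their probes had the same sign in 7 of 9 for visceral resveratrol minus HFS, in 6 of 9 for the subcutaneous contrast, in 4 of 9 for the resveratrol change over time and in 8 of 9 for the HFS change. OAS1 differed most within a gene in visceral fat, its 3 probes reading −0.68, −0.04 and 0.39, and in subcutaneous fat the IFI6 probes read −1.26 and −0.02.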

How the data were processed

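RNA of 45 fat samples was hybridised to Illumina HT-12 V4 human bead arrays. The deposited table holds bead intensity per probe from GenomeStudio 1.9.0, per the submitters' processing notes, not normalized, and a detection p-value per probe, per the file headers. The series' value table holds a deposited score that equals the standardized log intensity to within 5e-10 (column medians −0.437 to −0.290); it was used as an alternative. Of 47323 probes, 92 were empty on the subcutaneous arrays and 47231 were used; 30113 had 1 symbol, 8 several and 17110 none.

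All arrays were background-corrected and quantile-normalized together with limma 3.58.1 (neqc with detection p-values, offset 16, log2 scale) in R 4.3.3. Probes above background (detection p under 0.05) on at least 50% of the arrays of any group in the fit were kept, and each gene took its probe with the highest mean. Fits were made of visceral (10 arrays, 11657 genes), subcutaneous (35 arrays, 12130 genes) and all 45 arrays (12917 genes), with lmFit, eBayes with trend, and Benjamini-Hochberg adjustment over all genes; adjusted p under 0.05 passed. A gene above background on no array of a group gives a bound, "at least N-fold", against the dimmest level that was above background on each array. The brackets of a mean give SD and those of a difference SE. The number of arrays limits precision. Arrays of 1 group come from separate animals, while arrays of different times or depots can share one; animals were read from column names. Same-animal arrays of the 2 times correlated in their residuals by 0.0019 to 0.481, and the animal block was added after the data were seen. Scripts were tested on simulated data.

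The members and all gene lists were chosen with earlier results of these data known. Values per array were given for members that passed in a comparison, for a fixed set including ISG15, MX1, IFI44L, IFIT3, OAS1 and IFI6, and for the 5 members with the smallest unadjusted p in each resveratrol minus HFS comparison; of the other lists, genes that passed or had the smallest p were named. Alternatives changed the normalization, filter, probe choice, samples in the fit, blocks and weights, and left out each array in turn.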

Additional observations from a re-analysis of the deposited data

Results flagged for a closer look

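Of 217 groups of 4 to 10 arrays tested over the members, 19 had 1 array standing apart from the others, where chance gives about 1 in 20. Subcutaneous resveratrol replicate 4 of 24 months was lowest for BST2 (4.71) and IFITM1 (7.07) and stood apart for GBP1 (9.24). In the same group IRF1 stood apart on replicate 3 (4.49) and USP18 on replicate 2 (5.28). Subcutaneous HFS replicate 2 of 24 months stood apart for HERC6 (5.37), IFI44L (8.20) and XAF1 (5.10). In visceral HFS fat these were GBP1 on replicate 3 (9.80) and IFITM1 on replicate 4 (9.57). At baseline, the animals later given resveratrol had IFI44L on replicate 5 (7.13), OASL on replicate 6 (5.72) and PARP9 on replicate 7 (6.59). Those later given HFS had OASL on replicate 5 (4.68), PARP14 on replicate 7 (4.85) and USP18 on replicate 1 (5.29). Those kept on the standard diet had IFI44 on replicate 1 (9.08), IFIT3 on replicate 3 (4.85) and IFITM2 on replicate 2 (10.42).

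By limma's test of the difference, the resveratrol minus HFS contrast of visceral and of subcutaneous fat differed for IRF1 (−1.06) and USP18 (−0.96). These fitted values are no measured sizes: IRF1 was above background on 0 of 5 subcutaneous HFS arrays and USP18 on 0 of 4 visceral resveratrol arrays. USP18 was kept only through subcutaneous groups, and the groups that kept IRF1 included those of this contrast where it was high.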

How the results depend on the processing

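Of 706 counts and medians recomputed under alternatives, 627 did not move, and of 967 single-member values 6 turned direction; the cause was not tested. A count that stayed at 0 was taken as not moved, as was a median that stayed within the SD between arrays. Calls could be lost without a turn of direction. In subcutaneous resveratrol minus HFS this held for USP18 in 13 of 25 alternatives and for DTX3L in 12 of 25. In visceral resveratrol minus HFS, 0 members passed in the main analysis, but 4 did with all 45 arrays in 1 fit (788 of all genes), 15 with array weights (3354), 1 with only the groups compared (421) and 1 with the replicate block (310; ISG15, adjusted p = 0.0464). Leaving out 1 array gave 0 to 2, the 2 (IFI27 −2.46 and IFITM1 −0.70, with 1537 genes) without resveratrol replicate 1. IFIT3 was at 0.0826 with all 45 arrays, where another of its probes was used than in the visceral fit. It was at 0.0103 with median scaling, 0.217 with probes detected as a covariate and −0.148 to 0.0871 leaving out 1 array. IFI6 ran from −0.927 to 0.546 leaving out 1 array and reached −1.30 with the covariate.

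In subcutaneous resveratrol minus HFS the 2 became 1 with the deposited scores, without the filter, without the trend or with quantile normalization without background correction, and 0 with only the groups compared, with the covariate, within the dimmer set or with the replicate block (0 of all genes); leaving out 1 array gave 0 to 2. Replicate numbers across diets mark different animals, and same-number pairs over time correlated by −0.332 to 0.481. Resveratrol minus standard diet gave 2 with median scaling, 1 testing every probe and 0 to 1 leaving out 1 array. Over time, the 6 of resveratrol animals became 2 with the animal block, 1 with the array set as a block, 0 with the covariate, 3 with the replicate block, 0 within the dimmer set and 3 to 5 leaving out 1 array. The 2 of HFS animals became 7 at an adjusted p of 0.1 and with a random animal block, 9 with array weights, 1 with the deposited scores or only the groups compared, 0 with the animal or replicate block, median scaling or the dimmer set, and 0 to 3 leaving out 1 array. Standard-diet animals gave 3 with either block.

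The interaction gave 2 with median scaling and 1 with the deposited scores. Between depots the 5 of HFS animals became 9 with array weights, 2 with median scaling, 8 with only the groups compared and 2 to 7 leaving out 1 array, and standard-diet animals gave 1 with the replicate block and 0 to 1 leaving out 1 array. The depot difference in the resveratrol contrast gave 4 with array weights, 1 with the quantile setting, 1 with the replicate block and 1 to 2 leaving out 1 array.

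Median scaling moved the median of all genes to 0.375 in subcutaneous resveratrol minus HFS, 0.385 in resveratrol minus standard diet, 0.129 and −0.320 in the resveratrol and HFS changes over time, 0.550 in their interaction, 0.244 in baseline HFS minus standard diet, 0.139 between depots in HFS animals and −0.238 in the depot difference of the resveratrol contrast. The members' medians there were 0.456, 0.616, 0.413, 0.0538, 0.459, 0.237, 0.429 and −0.838. The last was −0.206 without the filter. Subcutaneous HFS minus standard diet had 0.413 with the replicate block. Leaving out 1 array gave −0.217 to 0.272 in subcutaneous resveratrol minus standard diet, −0.210 to 0.349 in visceral HFS minus standard diet and −0.669 to −0.0563 in visceral resveratrol minus standard diet. Genes near background, such as IRF1, USP18, HERC6, IFIT3 and OASL, have compressed differences.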
